A study of Mus musculus with 36 samples.

Results

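The genes described here encode the Mediator complex and the paired histone acetyltransferases p300 and CBP. Members were the protein-coding genes whose symbol is Med followed directly by a number, together with Ep300, Crebbp, Cdk8, Cdk19 and Ccnc, which gave 35 of the 54842 genes in the count table. By their place in the complex they were divided into a head of 8 members, a middle of 9, the scaffold subunit Med14, a tail of 8, a kinase module of 7 and the 2 acetyltransferases. The rule uses gene names and no measured value, but it was set with earlier results of these data known.

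Total RNA depleted of ribosomal RNA was sequenced from mouse embryonic fibroblast (MEF) lines, male cells established in the study's laboratory, in which doxycycline (dox) switches on a catalytically dead Cas9. In the MSR-dCas9-Control line this is dCas9 alone, and in the MSR-dCas9-Activator line it is dCas9 fused to VPR, a strong activator assembled from the VP64, p65 and Rta domains. Both lines carry, on the same integrated plasmid, a constitutively expressed guide RNA to the major satellite repeats (MSR) of pericentric heterochromatin, and both were kept as mixed cultures after selection rather than as single clones. Each line was sampled uninduced, at the end of induction with 10 ng/ml dox, and then 3, 6, 12 or 24 h into the time without dox, with 3 replicates in each of the 12 groups, which the study describes as independent experiments. Induction lasted 24 h in Control and 6 h in Activator, so the lines differ from then on in both effector and length of exposure. The question put to the genes below is how the mRNAs of the general coactivators behaved while transcription was driven from the satellite repeats and after the inducer had been withdrawn.

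Mediator relays signals from transcription factors bound at enhancers and promoters to RNA polymerase II. Its head and middle contact the polymerase, Med14 holds the complex together, the tail receives most of the activators, and the kinase module, built from Cdk8 or Cdk19, cyclin C, Med12 or Med12l and Med13 or Med13l, binds the core reversibly. p300 and CBP are large, closely related acetyltransferases that modify histones at active enhancers and promoters and are recruited by many activators, p65 among them. Med25 and Med17 are known contacts of acidic activation domains such as that of VP16, from which VP64 derives. Most of these genes are broadly expressed, and fibroblasts use the complex for growth and stress programmes.

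Genes took 27376846 to 57371803 counts per library, with a median of 42865961, and 28536 genes passed the filter on low counts. Counts on the major satellite family GSAT_MM were 721 to 2269 in the Control libraries, 2232 to 4751 in uninduced Activator and 90217 to 1419830 in Activator from induction on. Replicates of 1 group differed widely, with 183843, 90217 and 1232145 in Activator at the end of induction. Fibroblast markers, such as collagens and vimentin, summed to 22300 to 34700 CPM (counts scaled to a common library size with TMM, the trimmed mean of M values) in Control and 10900 to 34400 in Activator, while the endothelial list reached 44.0 in Activator against at most 1.91 in Control, and the part of either shift in the results was not tested. The fibroblast marker Thy1 was near 0, with at most 6 counts in any library. In bulk RNA, fewer cells of a kind and less RNA per cell cannot be told apart. The 35 members held 0.234% to 0.259% of gene counts in Control, 0.224% to 0.234% in uninduced Activator and 0.158% to 0.246% in Activator afterwards. In Activator from 6 h on, replicate 2 stood apart, with a member share of 0.210% after 6 h and 0.224% after 12 h against 0.158% to 0.169% in the other 4 libraries of those times. Counts of calls and the values of Ep300, Crebbp, Med13 and Med13l are given with and without them.

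Before induction the members did not have equal levels for their length. The length joins all annotated exons of a gene, whichever transcripts are present, so the order between genes is a rough one. Per kilobase of annotated exon, in the same CPM unit, the highest levels in uninduced Control were those of Med13 at 26.1 ± 1.28, Med1 at 25.9 ± 0.907 and Med22 at 24.0 ± 1.40 (mean ± SD, n = 3). Med13 and Med1 did not differ beyond their spread, and Med22 lay just under them. Crebbp at 17.5 ± 1.09 and Ep300 at 14.6 ± 0.410 were in the upper part of the order, and Cdk8 at 10.2 ± 0.840 was above its paralog Cdk19 at 3.67 ± 0.480. Med10 at 2.30 ± 0.180 and Med12l at 0.00169 ± 0.00147 were the lowest. Counts of Med10 cannot be told apart from those of an overlapping gene, as described below. By 12 h in Activator the level of Med22 was 4.67 ± 0.767, next to Cdk8 at 4.60 ± 0.819, and Med30 at 20.6 ± 4.70, Med19 at 17.4 ± 2.34 and Crebbp at 17.2 ± 3.06 overlapped at the top of the order.

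The lines were first compared without dox, and Control was followed through induction. No member differed between the uninduced lines at an adjusted p under 0.05 (edgeR quasi-likelihood test, Benjamini-Hochberg over all genes tested), with 7 at an unadjusted p under 0.05 and 2, both lower in Activator, by DESeq2. Of all genes 0.883% were higher and 0.343% lower in that comparison. The libraries of 9 members did not overlap, all with Activator below, while among all genes 7.93% had every Activator library below and 8.58% every one above. On induction of dCas9 alone no member passed the threshold either, beside 0.0526% of all genes higher and 0.161% lower. DESeq2 called none, although 2 rose and 1 fell in a fit of the compared groups alone. An unadjusted p under 0.05 in the edgeR fit was reached by 2 members, Med22 (log2 fold change -0.38) and Med4 (0.27).

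From the end of induction on, some coactivator genes of the Activator line were lower than in Control and others higher. Compared with Control at the same time, 6 members were higher and 8 lower at the end of induction, 5 and 11 after 3 h, 6 and 14 after 6 h, 7 and 16 after 12 h, and 7 and 15 after 24 h (adjusted p under 0.05 at any fold). The same limits were passed by a large part of the transcriptome. Among all genes 31.7% were higher and 25.5% lower at the end of induction, 39.6% and 31.4% after 3 h, 40.8% and 33.3% after 6 h, 41.1% and 34.1% after 12 h, and 34.5% and 29.4% after 24 h. In this fit the members called higher were a smaller share than among genes in general at each time, and those called lower a share near or above the background. Every Activator library lay above every Control library for 8, 5, 5, 6 and 8 members at these times, and below for 9, 11, 12, 15 and 14, beside 31.8%, 39.8%, 38.1%, 39.9% and 32.7% of all genes above and 26.1%, 31.6%, 30.9%, 33.7% and 28.8% below. At 12 h the head had 1 member higher and 5 lower of 8, the middle 3 and 2 of 9, the tail 2 and 2 of 8 and the kinase module 1 and 6 of 7. Without Activator replicate 2 of the time concerned the split was 8 and 12 after 6 h, 9 and 15 after 12 h and 7 and 15 after 24 h. Which direction held more members was not stable. At 12 and 24 h it turned under another scaling or filter, as given below. Leaving out replicate number 2 in every group gave 20 higher and 7 lower after 3 h, 16 and 10 after 6 h. The shares of all genes called in the fits that left out libraries are not given here, so these splits lack a background. Med12l, which entered the tested set only through its Activator counts, is 1 of the members counted as higher at 6, 12 and 24 h. The median log2 fold change of the members was -0.13 after 12 h and -0.18 after 24 h, against 0.12 and 0.01 for all genes. Before induction it was already -0.09, against 0.03 for all genes.

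The number of calls moved with the scaling. With DESeq2 size factors the split was 14 higher and 7 lower after 3 h and 14 and 12 after 12 h, and when libraries were scaled to the 13 mitochondrially encoded mRNAs it was 1 and 28 after 3 h and 3 and 28 after 12 h. All-gene shares of these fits are not given here either. From induction on, the all-gene median was 0.01 to 0.16 in the TMM fit, between 0.16 and 0.33 with DESeq2 size factors and between -0.58 and -0.18 on the mitochondrial scale. Relative to the all-gene median of the same time, the members' own median was -0.12 before induction and -0.11 at its end. It was -0.19 after 3 h, -0.16 after 6 h, -0.25 after 12 h and -0.19 after 24 h. Under the 5 other scalings it stayed between -0.26 and -0.25 after 12 h and at -0.19 after 24 h. A change of scaling moves all genes by nearly the same amount, so this offset could hardly change and its stability is no test of it. Of the 95 calls over the 5 times, 56 held under every one of those scalings. In 45 calls, spread over 17 members, direction and threshold held in all 19 other fits of that time point, which also left out libraries, the replicate number and the filter. Among these 17 members, 12 were lower in Activator and 5 higher, and the account below is ordered by their roles and rests mainly on them.

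**Figure D1:**
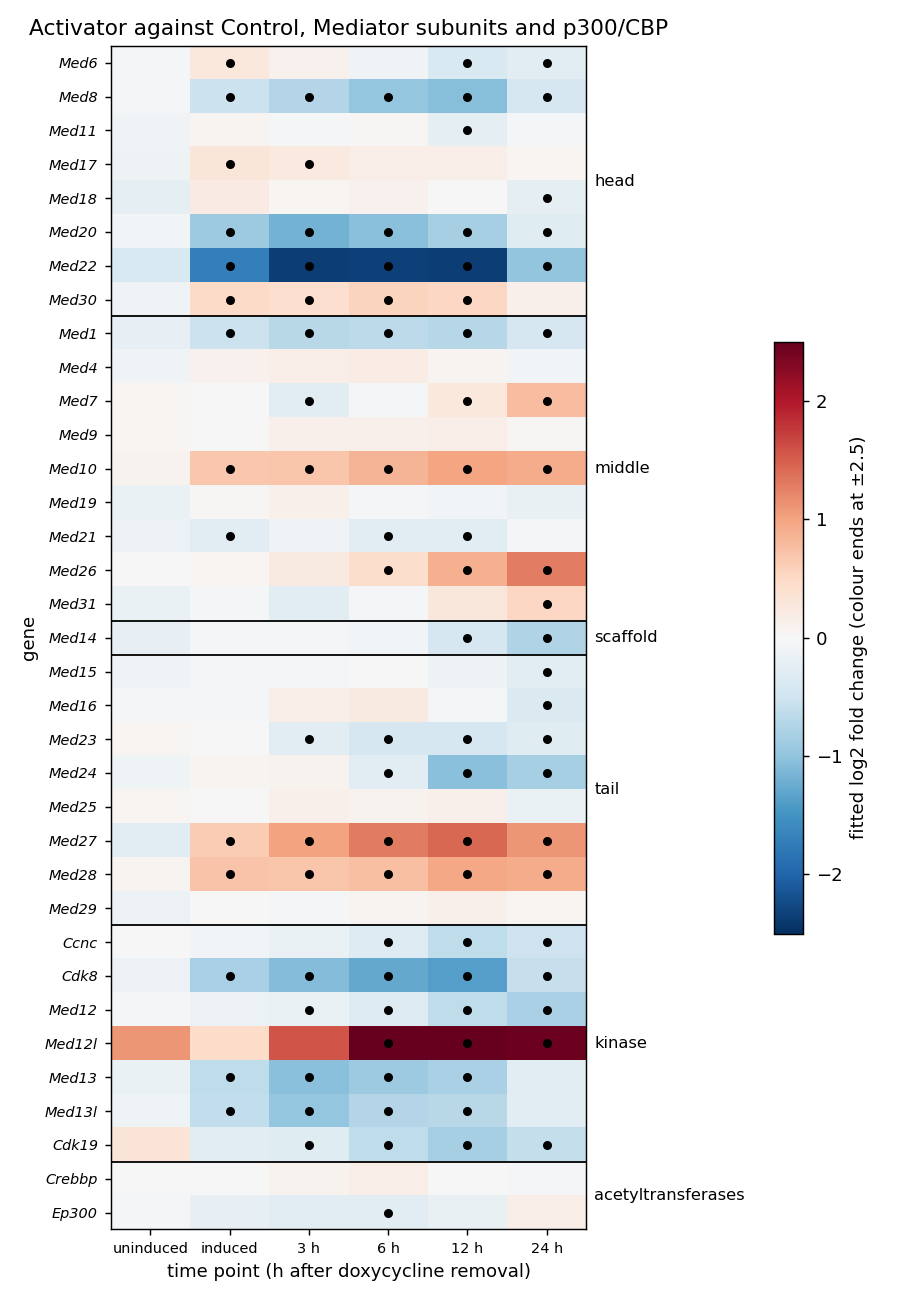
Fitted log2 fold change of each of the 35 members (rows, by module) in MSR-dCas9-Activator against MSR-dCas9-Control at the 6 time points (columns), with colour ending at 2.5 in either direction and a dot where the adjusted p was under 0.05. Med22, Cdk8, Med20, Med8 and Med1 are lower at each time from induction on, Med27, Med28 and Med10 are higher, and the uninduced column has no dot.

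Of all members Med22, a small head subunit, showed the largest fall. It lies at chr2:26905262-26910677 on the minus strand of GRCm38, and its exons overlap no other annotated gene. CPM values were between 56.7 and 92.4 with a median of 78.7 over the 18 Control libraries. Control itself varied with time. Its libraries held 82.6 to 92.4 before induction and 61.5 to 69.5 at its end. After 12 h they held 83.0 to 91.9 and after 24 h 56.7 to 70.9. In Activator the 3 replicates held 76.8, 58.3 and 63.6 before induction, 19.4, 24.0 and 18.0 at its end, 15.4, 16.1 and 16.5 after 3 h, 15.5, 15.6 and 14.7 after 6 h, 15.2, 20.1 and 15.4 after 12 h and 26.4, 35.6 and 35.0 after 24 h. Every Activator library from induction on lay below every Control library, with the 24 h libraries part of the way back, and the lines were already separate by a smaller step before dox. The log2 fold change against Control was -1.70 ± 0.12 (SE) at the end of induction (edgeR, Benjamini-Hochberg adjusted p = 3.06e-12), -2.36 ± 0.12 (SE) after 3 h, -2.33 ± 0.12 (SE) after 6 h, -2.35 ± 0.12 (SE) after 12 h (adjusted p = 2.47e-15) and -0.98 ± 0.12 (SE) after 24 h (adjusted p = 3.36e-08). Before induction it was -0.38 ± 0.11 (SE), adjusted p = 0.105. All 5 calls held in every other fit.

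To show what lies at the start of the members that moved most in each direction and were called at each time, the promoter windows of Med22, of the kinase gene Cdk8 and of the tail gene Med27 are printed (RefSeq starts on GRCm38.p6, 250 bases before to 50 after the start, read 5′ to 3′ on the gene's strand). A search of both strands covered 6 short motifs, and capitals mark a GC box (GGGCGG), an E-box (CACGTG) or a CCAAT box. Med22 lies on the minus strand at chr2:26910593-26910892, and Cdk8 at chr5:146231000-146231299 and Med27 at chr2:29346560-29346859 on the plus strand.
Med22: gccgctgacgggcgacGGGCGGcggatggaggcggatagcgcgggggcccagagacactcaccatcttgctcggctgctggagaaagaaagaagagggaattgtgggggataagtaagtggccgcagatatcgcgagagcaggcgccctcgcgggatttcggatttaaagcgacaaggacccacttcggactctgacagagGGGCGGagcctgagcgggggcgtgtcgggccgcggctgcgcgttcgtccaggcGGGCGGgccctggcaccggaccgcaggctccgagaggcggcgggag
Cdk8: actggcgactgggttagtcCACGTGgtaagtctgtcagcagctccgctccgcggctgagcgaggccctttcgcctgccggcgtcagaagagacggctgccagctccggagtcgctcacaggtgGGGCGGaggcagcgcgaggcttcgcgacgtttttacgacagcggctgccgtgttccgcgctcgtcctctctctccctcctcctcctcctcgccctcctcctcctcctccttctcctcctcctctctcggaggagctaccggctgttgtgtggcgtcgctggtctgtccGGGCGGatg
Med27: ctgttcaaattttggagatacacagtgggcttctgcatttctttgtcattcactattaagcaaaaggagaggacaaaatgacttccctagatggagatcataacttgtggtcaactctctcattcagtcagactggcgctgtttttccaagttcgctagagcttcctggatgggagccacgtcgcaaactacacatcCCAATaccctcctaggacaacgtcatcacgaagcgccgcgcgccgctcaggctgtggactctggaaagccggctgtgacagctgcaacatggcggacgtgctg
The window of Med22 held 3 GC boxes, that of Cdk8 2 GC boxes and 1 E-box, and that of Med27 1 CCAAT box and no GC box. A match is a run of letters and no sign of binding. Windows were found for 30 members, of which 20 held a GC box and 11 a CCAAT box, against 35.7% and 37.4% of the 32851 windows in the reference, and their median GC content was 59.0% against 52.7%. An E-box was found in 4 of the 30, a TATA box (TATAAA) in 3, an ETS motif (CCGGAAG) in 7 and a cAMP response element (TGACGTCA) in 1, beside 7.15%, 13.6%, 8.86% and 1.79% of all windows.

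Med20, which pairs with Med18 in the movable part of the head, fell early. Its CPM lay between 29.4 and 37.5 with a median of 33.9 in the 18 Control libraries. In Activator the values were 34.3, 29.6 and 31.3 before induction, 16.6, 16.8 and 16.2 at its end and 15.6, 17.2 and 14.1 at 3 h. At 6 h they were 16.7, 18.5 and 16.5, after 12 h 19.1, 21.3 and 20.9 and after 24 h 26.1, 25.6 and 27.2. Most of the fall was there by the end of induction and the 24 h libraries were the closest to Control, but at each of these times no Activator library reached the lowest Control library of that time. The log2 fold change was -0.91 ± 0.08 (SE) at the end of induction, -1.18 ± 0.08 (SE) after 3 h (adjusted p = 4.85e-13), -0.83 ± 0.08 (SE) after 12 h and -0.30 ± 0.08 (SE) after 24 h (adjusted p = 0.00135). The first 4 calls held in every other fit, and that at 24 h was lost without Activator replicate 1 of that time (-0.18). Exons of Med20 share 21.4% of their length with the antisense pseudogene Kpna2-ps and 7.0% with Gm20517 on its own strand. Kpna2-ps had log2 fold changes of -0.43 after 6 h (adjusted p = 0.0164) and -0.06 after 12 h (adjusted p = 0.73), and Gm20517 one of 0.46 after 12 h (adjusted p = 0.000288).

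Med8, which anchors that movable part to the rest of the head, fell by degrees. Its log2 fold change was -0.55 ± 0.08 (SE) at the end of induction, -0.73 ± 0.08 (SE) after 3 h, -0.96 ± 0.08 (SE) after 6 h, -1.06 ± 0.08 (SE) after 12 h (adjusted p = 4.32e-12) and -0.42 ± 0.08 (SE) after 24 h. In CPM the 12 h libraries held 36.6, 33.5 and 35.3 in Control and 17.3, 16.6 and 16.6 in Activator. The first 4 calls held in every other fit.

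The other head subunits moved less or not in a lasting way. Med30 was higher from the end of induction to 12 h, by 0.47, 0.42, 0.56 and 0.52, but its sign turned on the mitochondrial scale at 3, 6 and 12 h, and relative to the median of all genes it was higher by 0.37, 0.26, 0.43 and 0.40. Without Control replicate 1 of the induced libraries the first of these values was 0.37 (adjusted p = 0.0507). Med17, the central head subunit, was higher by 0.30 at the end of induction and 0.25 at 3 h, with the sign turned on the mitochondrial scale, which left 0.20 and 0.09 relative to all genes. Its 3 h call was lost without Control replicate 2 (0.21). Med6 was called higher at the end of induction (0.26, of the other sign on the mitochondrial scale) and lower after 12 h (-0.39) and 24 h (-0.26), Med11 lower after 12 h alone (-0.24) and Med18 lower after 24 h alone (-0.22). The calls of Med11, of Med18 and of Med6 at the end of induction and at 24 h failed in more than 10 of the 19 other fits each.

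In the middle module Med1, the subunit best known for binding nuclear receptors, was lower at each time. CPM values were between 198 and 245 with a median of 224 in the 18 Control libraries. Activator libraries held 207, 186 and 196 before induction, 157, 164 and 157 at its end, 146, 138 and 143 after 3 h, 136, 132 and 138 after 6 h, 134, 148 and 141 after 12 h and 155, 167 and 162 after 24 h. The replicates were close to each other, and all 15 Activator libraries from induction on lay below the lowest Control library. The log2 fold change moved from -0.53 ± 0.07 (SE) at the end of induction (edgeR adjusted p = 1.27e-07) to -0.70 ± 0.07 (SE) after 3 h, -0.66 ± 0.07 (SE) after 6 h, -0.72 ± 0.07 (SE) after 12 h and -0.42 ± 0.07 (SE) after 24 h. Part of the difference was present before dox, where it was -0.20 ± 0.07 (SE) with an adjusted p of 0.16. Less that difference, the value at 24 h was -0.22 (adjusted p = 0.0769).

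Med26, the subunit that links Mediator to elongation factors, rose late, and at 24 h its difference was the largest of the members with ample counts. Its CPM lay between 17.9 and 27.4 with a median of 20.7 in Control. The Activator line had 21.7, 19.2 and 20.7 before induction, 20.9, 21.2 and 25.5 at its end and 21.3, 29.0 and 26.5 at 3 h. Later values were 25.0, 32.7 and 31.1 after 6 h, 37.4, 47.6 and 48.4 after 12 h and 54.8, 36.4 and 61.0 after 24 h. The lines overlapped up to 3 h and were separate from 6 h on, and the highest libraries were those of 24 h, although replicate 2 at that time was no higher than the libraries of 12 h. Against Control the log2 difference was 0.06 ± 0.13 (SE) at the end of induction (adjusted p = 0.724), 0.44 ± 0.13 (SE) after 6 h (adjusted p = 0.0029), 0.88 ± 0.13 (SE) after 12 h and 1.28 ± 0.13 (SE) after 24 h (adjusted p = 1.53e-09). On the mitochondrial scale the sign after 6 h turned and the 12 h call was lost (0.29, adjusted p = 0.233). The 6 h call was also lost with library size without TMM (0.30, adjusted p = 0.0529) and with gene plus repeat counts (0.26, adjusted p = 0.0822). Only the 24 h call held in every other fit. Relative to all genes the rise was 0.31 after 6 h, 0.76 after 12 h and 1.28 after 24 h. The antisense gene Gm17435, which shares 12.7% of the exons of Med26, moved the other way at 12 h, with a log2 fold change of -0.54 ± 0.13 (SE).

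**Figure D2:**
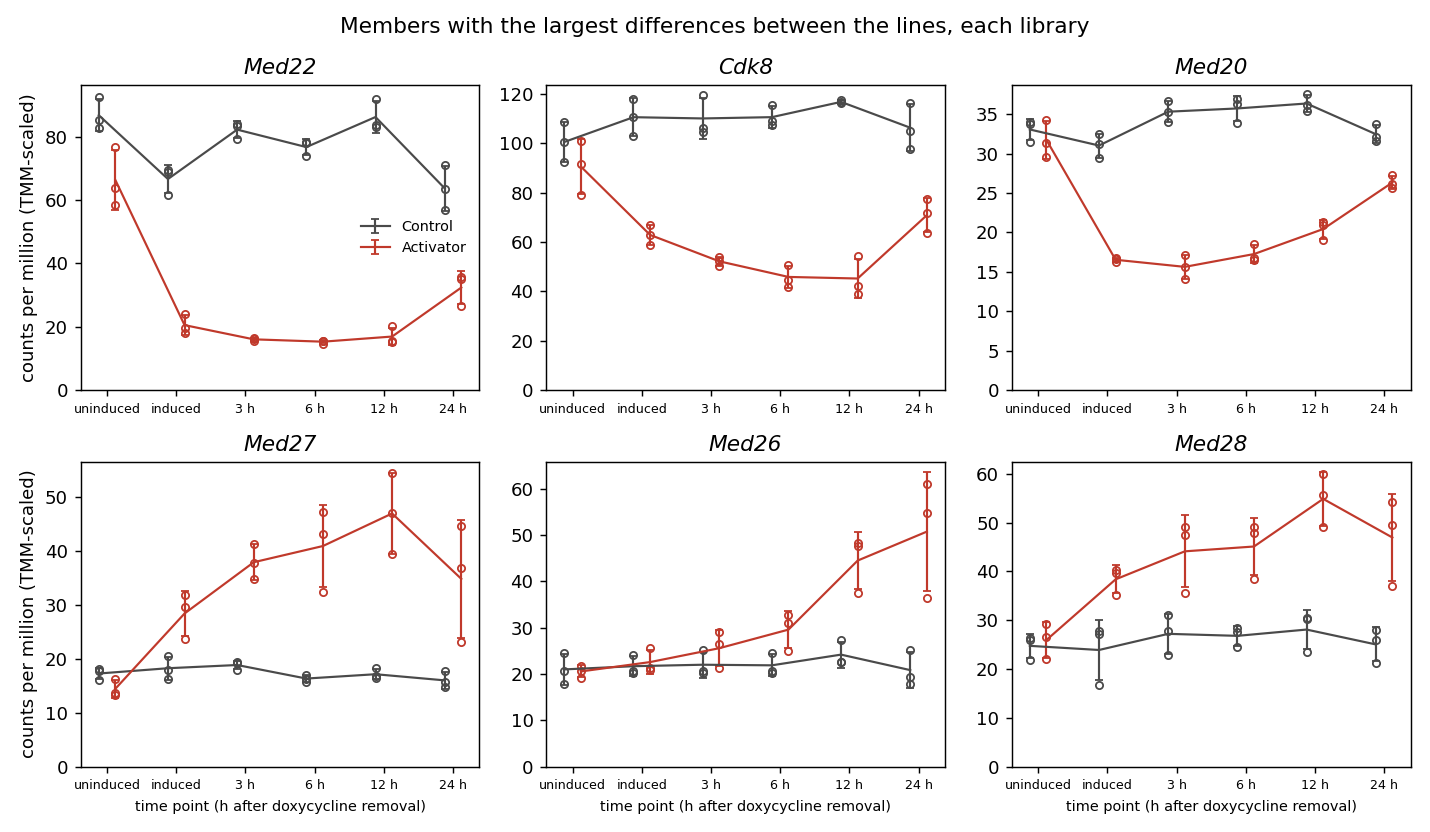
CPM (TMM-scaled, linear axis from 0) of the 3 members with the largest falls that were measured in ample counts (Med22, Cdk8, Med20) and of Med27, Med26 and Med28, by time point, with each library as an open point and the mean ± SD of 3 replicates as lines, grey for MSR-dCas9-Control and red for MSR-dCas9-Activator. Med22 drops to between 14.7 and 24.0 by 12 h and returns part of the way, whereas Med26 is separate from Control from 6 h on.

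Med10 was higher at each time, by 0.66 ± 0.12 (SE) at the end of induction and 1.00 ± 0.12 (SE) after 12 h, with 9.82, 10.2 and 10.1 CPM in Control and 23.0, 16.4 and 21.8 in Activator after 12 h. This value cannot be given to Med10 alone. The long noncoding gene Gm26819 on the opposite strand covers 92.8% of the exons of Med10, its counts nearly equalled those of Med10 in every library (950 for Med10 and 962 for Gm26819 in Activator replicate 1 after 12 h), and its log2 fold change after 12 h was 0.97 ± 0.12 (SE). The libraries were made with a stranded kit, but whether the counting used strand was not given in the sources used here, and reads of the pair cannot be told apart.

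Med7 turned with time. At 3 h its log2 fold change was -0.28 ± 0.12 (SE) (adjusted p = 0.0308), after 12 h 0.27 ± 0.12 (SE) (adjusted p = 0.0363) and after 24 h 0.78 ± 0.12 (SE) (adjusted p = 1.46e-06), where Control held 13, 12.2 and 14.8 CPM and Activator 22.4, 20.3 and 26.2. Only the 24 h call held in every other fit. The value at 12 h turned on the mitochondrial scale, and its call was lost without Activator replicate 2 (0.25) or Control replicate 1 (0.26). Its exons share 21.2% with the antisense gene 2310031A07Rik. Med31, whose exons share 26.3% with the antisense gene 4930563E22Rik, was higher at 24 h (0.53), a call lost without replicate number 3 (0.33, adjusted p = 0.13) and on the mitochondrial scale (0.35, adjusted p = 0.062). Med21 was called lower at the end of induction, 6 h and 12 h (-0.28, -0.28 and -0.28), values that kept their call in 5 to 7 of the 19 other fits. Med4, Med9 and Med19 passed the threshold at none of the 5 times with all libraries in the fit. Without Activator replicate 2 of 6 h Med4 passed it at that time (0.35, adjusted p = 0.0129).

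The scaffold subunit Med14, to which head, middle and tail all attach, fell only late. CPM values were between 139 and 183 with a median of 161 in Control. Values in Activator were 140.1, 127 and 139.7 before induction, 170.1, 142 and 175 at its end and 172, 144 and 183 at 3 h. Later values were 182, 122 and 170.0 after 6 h, 139, 99.1 and 130.3 after 12 h and 85.2, 92.6 and 82.9 after 24 h. Before dox the Activator libraries lay below those of Control, from the end of induction to 6 h the lines overlapped, and at 12 and 24 h they were separate. On the log2 scale the difference from Control was -0.05 ± 0.09 (SE) at the end of induction (adjusted p = 0.665), -0.41 ± 0.09 (SE) after 12 h (adjusted p = 0.00026) and -0.76 ± 0.09 (SE) after 24 h (adjusted p = 8.11e-08). Before induction it was -0.21 ± 0.09 (SE) (adjusted p = 0.42), and less that difference the 12 h value was -0.21 (adjusted p = 0.198). The 24 h call held in every other fit, and that at 12 h in 14 of 19, missing the threshold with DESeq2 size factors (-0.20, adjusted p = 0.0589).

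Among the tail subunits Med27 rose most. Its CPM lay between 14.7 and 20.6 with a median of 17.3 in Control. In Activator the values were 16.3, 13.3 and 13.6 before induction, 31.8, 23.7 and 29.7 at its end and 41.3, 34.7 and 37.7 at 3 h. Later values were 47.2, 32.4 and 43.1 after 6 h, 54.4, 39.3 and 47.0 after 12 h and 44.6, 23.1 and 36.8 after 24 h. Every Activator library from induction on lay above every Control library, and replicate 2 was the lowest of the 3 at each of these times. Fitted as a log2 fold change, the difference was 0.63 ± 0.12 (SE) at the end of induction (edgeR adjusted p = 8.58e-05), 1.00 ± 0.12 (SE) after 3 h, 1.30 ± 0.12 (SE) after 6 h, 1.44 ± 0.12 (SE) after 12 h (adjusted p = 3.13e-11) and 1.10 ± 0.12 (SE) after 24 h. Without Activator replicate 2 all calls held. On the mitochondrial scale the first value was 0.27 (adjusted p = 0.13), and relative to all genes the rise was 0.53 at the end of induction and 1.32 at 12 h.

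Med28, a small metazoan subunit placed here in the tail, followed a like course, with log2 fold changes of 0.71 ± 0.11 (SE), 0.70 ± 0.11 (SE), 0.75 ± 0.11 (SE), 0.97 ± 0.11 (SE) and 0.92 ± 0.12 (SE) over the same times. Its 12 h libraries held 23.6, 30.2 and 30.5 CPM in Control and 49.1, 55.6 and 59.9 in Activator. On the mitochondrial scale its calls up to 12 h were lost with the sign kept, and relative to all genes it was higher by 0.60 at the end of induction and 0.85 at 12 h. Exons of Med28 overlap no other annotated gene.

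Med24, a tail subunit that binds next to Med23 and Med16, had a log2 fold change of 0.08 ± 0.09 (SE) at the end of induction (adjusted p = 0.491) but one of -1.05 ± 0.09 (SE) after 12 h (adjusted p = 4.73e-11) and -0.83 ± 0.09 (SE) after 24 h. CPM at 12 h were 67.3, 63.6 and 68.1 in Control and 31.3, 35.2 and 29.9 in Activator, and both late calls held in every other fit. Med23, a partner of growth-signal-regulated factors, was called lower from 3 to 24 h, with log2 fold changes of -0.28, -0.42, -0.43 and -0.30. Its call at 12 h was lost without Activator replicate 1 (-0.21). Those at 3 and 24 h were lost without Control replicate 1 (-0.21 and -0.26), Activator replicate 1 (-0.26 and -0.13) or Activator replicate 3 (-0.19 and -0.15). Med16 was lower at 24 h only (-0.36), a call lost without Activator replicate 1 (-0.29) or replicate 3 (-0.24).

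Med15, the tail subunit that binds sterol-regulatory factors, passed the threshold at 24 h only. CPM values were between 81.4 and 103 with a median of 95.5 in Control. Activator libraries held 95.7, 77.4 and 94.4 before induction, 95.0, 92.1 and 102 at its end, 91.5, 91.9 and 106 after 3 h, 102, 91.1 and 100.2 after 6 h, 95.8, 79.4 and 87.2 after 12 h and 73.6, 74.2 and 70.9 after 24 h. The libraries overlapped at each time except 24 h, where the log2 fold change was -0.26 ± 0.07 (SE) (adjusted p = 0.00287). That call was lost without Activator replicate 1 (-0.15) or replicate 3 (-0.09). Med25 and Med29 passed the threshold at none of the 5 times with all libraries in the fit. Without Activator replicate 2 of 12 h both passed it at that time, Med25 at 0.25 (adjusted p = 0.0345) and Med29 at 0.29 (adjusted p = 0.0243). For Med25, the contact of VP16, the log2 fold change with all libraries was -0.02 ± 0.10 (SE) at the end of induction and 0.12 ± 0.10 (SE) at 12 h.

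Most genes of the kinase module were lower. At 6 and 12 h 6 of its 7 members were lower, the exception being Med12l, beside 33.3% and 34.1% of all genes, and its median log2 fold change was -0.64 and -0.68. At 3 h 5 members were lower and at the end of induction 3, beside 31.4% and 25.5% of all genes. Of the 3 h calls, those of Cdk19 and Med12 were lost in most other fits.

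Cdk8, the kinase itself, fell from the end of induction on. It lies at chr5:146231230-146302874 and overlaps no other gene. Its CPM lay between 92.3 and 119.6 with a median of 109 in Control. The Activator line had 101, 78.9 and 91.8 before induction, 67.1, 62.7 and 58.9 at its end, 52.5, 50.3 and 53.8 after 3 h, 41.9, 50.8 and 44.8 after 6 h, 39.0, 54.3 and 42.3 after 12 h and 63.6, 77.3 and 71.7 after 24 h. Lines overlapped before induction and at no later time. The log2 fold change was -0.81 ± 0.11 (SE) at the end of induction (edgeR adjusted p = 2.42e-07), -1.08 ± 0.11 (SE) after 3 h, -1.27 ± 0.11 (SE) after 6 h, -1.37 ± 0.11 (SE) after 12 h (adjusted p = 4.87e-12) and -0.59 ± 0.11 (SE) after 24 h, and all 5 calls held in every other fit.

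Cdk19, the alternative kinase of the module, varied more between replicates. Control libraries held between 18.0 and 27.9 with a median of 21.7 CPM. Values in Activator were 22.5, 35.3 and 23.9 before induction, 15.0, 24.4 and 16.6 at its end and 14.3, 18.5 and 16.8 at 3 h. Later values were 10.96, 16.5 and 12.6 after 6 h, 9.82, 13.6 and 10.3 after 12 h and 13.8, 23.1 and 15.1 after 24 h. Replicate 2 was the highest of the Activator libraries in each group. Against Control the log2 difference was -0.30 ± 0.12 (SE) after 3 h (adjusted p = 0.0312), -0.64 ± 0.12 (SE) after 6 h, -0.83 ± 0.13 (SE) after 12 h (adjusted p = 1.15e-06) and -0.59 ± 0.12 (SE) after 24 h. Calls at 6 and 12 h held in every other fit, and the 3 h call held in 7 of 19, being lost without Activator replicate 1 (-0.22), Activator replicate 2 (-0.24), Control replicate 1 (-0.23) or Control replicate 3 (-0.31).

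Cyclin C, the product of Ccnc and partner of both kinases, fell later than Cdk8. Control libraries held between 31.3 and 38.0 with a median of 33.6 CPM. In Activator the values were 34.8, 31.8 and 30.2 before induction, 36.3, 32.2 and 33.2 at its end, 33.8, 27.9 and 35.2 after 3 h, 32.2, 21.1 and 27.7 after 6 h, 25.1, 21.3 and 21.3 after 12 h and 22.2, 23.7 and 21.4 after 24 h. The lines were separate at 6, 12 and 24 h. On the log2 scale the difference from Control was -0.07 ± 0.10 (SE) at the end of induction (adjusted p = 0.539), -0.33 ± 0.10 (SE) after 6 h (adjusted p = 0.00307), -0.64 ± 0.10 (SE) after 12 h (adjusted p = 9.52e-07) and -0.51 ± 0.10 (SE) after 24 h. Without Activator replicate 2 of that time the 6 h value was -0.15 (adjusted p = 0.151).

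Med12, which activates the kinase through cyclin C, fell steadily. Control libraries held between 105 and 122.6 with a median of 115 CPM. Activator libraries held 110.2, 114 and 111 before induction, 101, 105 and 107 at its end, 98.4, 96.0 and 97.6 after 3 h, 92.6, 90.7 and 88.8 after 6 h, 76.5, 73.6 and 73.8 after 12 h and 63.2, 80.7 and 59.8 after 24 h. Each later group was lower than the one before it except for replicate 2 at 24 h, which lay above the 12 h libraries. Fitted as a log2 fold change, the difference was -0.17 ± 0.08 (SE) after 3 h (adjusted p = 0.0476), -0.32 ± 0.08 (SE) after 6 h, -0.64 ± 0.08 (SE) after 12 h and -0.80 ± 0.08 (SE) after 24 h (adjusted p = 8.59e-10). Both late calls held in every other fit. The 3 h call held in 4 of 19 and was lost on leaving out any of the 3 Activator libraries (-0.15, -0.13 and -0.15) or Control replicate 1 (-0.13) or 3 (-0.18).

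Med13, which joins the module to the core complex, fell early and rose again between 12 and 24 h within Activator (0.39 ± 0.14 (SE), adjusted p = 0.03). Control libraries held between 271 and 331 with a median of 301 CPM. The Activator line had 269, 243 and 247 before induction, 196, 199 and 191 at its end and 156, 167 and 128 at 3 h. Later values were 132, 208 and 135 after 6 h, 135, 242 and 163 after 12 h and 215, 258 and 231 after 24 h. Activator lay below Control in every group, the uninduced one included, and replicate 2 stood apart at 6 and 12 h and was still below Control. The log2 fold change was -0.63 ± 0.14 (SE) at the end of induction, -1.04 ± 0.14 (SE) after 3 h (adjusted p = 2.21e-07), -0.90 ± 0.14 (SE) after 6 h, -0.81 ± 0.14 (SE) after 12 h and -0.28 ± 0.14 (SE) after 24 h (adjusted p = 0.0861), and the calls at 3, 6 and 12 h held in every other fit. Its paralog Med13l followed with -0.62 ± 0.15 (SE), -0.96 ± 0.15 (SE), -0.72 ± 0.15 (SE), -0.68 ± 0.15 (SE) and -0.29 ± 0.15 (SE). Without Activator replicate 2 the values of Med13 were -1.07 after 6 h and -0.97 after 12 h, and those of Med13l -0.90 and -0.86. After 24 h they were then -0.32 for Med13 (adjusted p = 0.0773) and -0.40 for Med13l (adjusted p = 0.0398), the latter past the threshold.

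Med12l, the paralog of Med12, was barely detected, and it passed the filter on low counts only through the Activator libraries. Over 18 Control libraries its counts ran from 0 to 5. In Activator the counts were 20, 0 and 4 after 6 h, 12, 5 and 10 after 12 h and 10, 9 and 16 after 24 h. Summed over replicates, that was 27 counts against 2 in Control after 12 h and 35 against 7 after 24 h. Since the Activator counts decided that Med12l was tested at all, these counts are given as a description. Its exons share 15.3% with Igsf10 on the opposite strand.

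**Figure D3:**
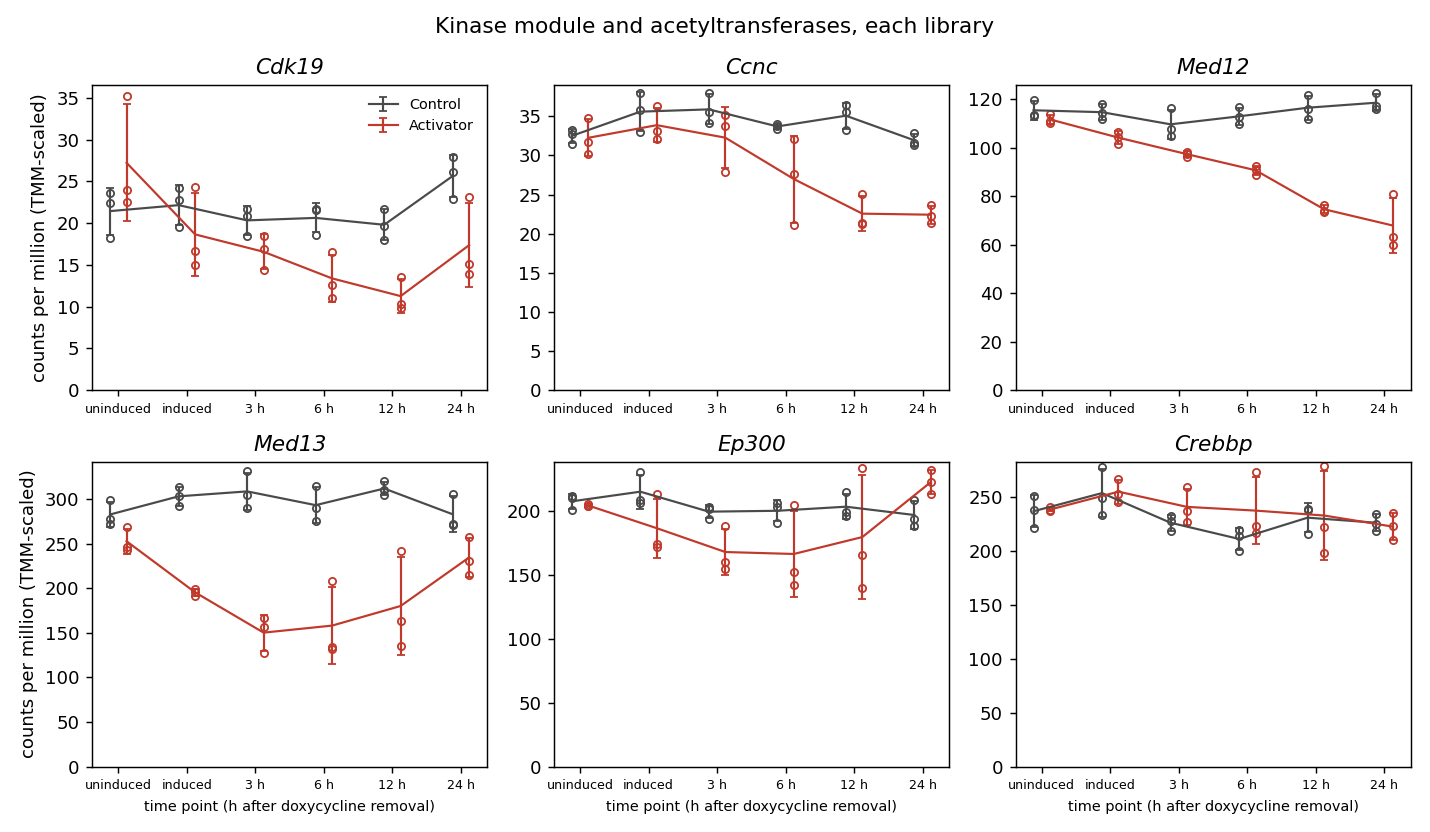
CPM (TMM-scaled, linear axis from 0) of 4 kinase module members (Cdk19, Ccnc, Med12, Med13) and of Ep300 and Crebbp by time point, each library as an open point, mean ± SD of 3 replicates as lines, grey for MSR-dCas9-Control and red for MSR-dCas9-Activator. Med12 declines in every group after induction, Med13 returns towards Control by 24 h, and replicate 2 of Activator stands above replicates 1 and 3 for Ep300 and Crebbp at 6 and 12 h.

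Of the acetyltransferase genes, Ep300 passed the threshold at 1 time and Crebbp at none with all libraries in the fit. For Ep300 (chr15:81585351-81652077, plus strand) the Control libraries held between 189 and 231 with a median of 204 CPM. Values in Activator were 206, 204 and 205 before induction, 172, 214 and 175 at its end and 155, 189 and 161 at 3 h. Later values were 143, 205 and 153 after 6 h, 139.8, 234 and 166 after 12 h and 214, 223 and 233 after 24 h. Replicates 1 and 3 lay below the Control libraries of their time from the end of induction to 12 h, replicate 2 lay below, among or above them, and at 24 h all 3 lay above. Against Control the log2 difference was -0.21 ± 0.12 (SE) at the end of induction (adjusted p = 0.116), -0.26 ± 0.12 (SE) after 3 h (adjusted p = 0.0509), -0.27 ± 0.12 (SE) after 6 h (adjusted p = 0.0349), -0.19 ± 0.12 (SE) after 12 h (adjusted p = 0.133) and 0.18 ± 0.12 (SE) after 24 h (adjusted p = 0.187). Without Activator replicate 2 the value was -0.36 after 6 h (adjusted p = 0.0121), -0.31 after 12 h (adjusted p = 0.0127), which is then past the threshold, and 0.21 after 24 h (adjusted p = 0.147). The 6 h call held in 7 of 19 other fits and was lost without Activator replicate 1 (-0.14) or 3 (-0.17) and without Control replicate 1 (-0.28) or 3 (-0.19).

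Crebbp (chr16:4081328-4213997, minus strand) was tested in the same way. Its Control libraries held between 201 and 278 with a median of 230.4 CPM. In Activator the values were 241, 238 and 237 before induction, 245, 253 and 267 at its end, 237, 259.5 and 227 after 3 h, 217, 273 and 223 after 6 h, 198, 279 and 222 after 12 h and 210.4, 235 and 223 after 24 h. Values of the lines overlapped at each time, and replicate 2 was the highest of the Activator libraries from 3 h on. On the log2 scale the difference from Control was 0.01 ± 0.10 (SE) at the end of induction, 0.17 ± 0.10 (SE) after 6 h (adjusted p = 0.118), 0.01 ± 0.10 (SE) after 12 h (adjusted p = 0.948) and -0.02 ± 0.10 (SE) after 24 h. Without Activator replicate 2 it was 0.12 after 6 h (adjusted p = 0.312), -0.05 after 12 h (adjusted p = 0.634) and -0.06 after 24 h (adjusted p = 0.655).

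Ratios of paralogs within a library need no size factor and were compared between the lines from the end of induction on. Libraries with the same replicate number at different times may share an experiment, so the mean over the 5 times was taken as 1 value for each number, which leaves 3 against 3 and a smallest exact permutation p of 0.1. The log2 ratio of Cdk8 to Cdk19 was 2.36 ± 0.26 over the 15 Control libraries and 1.86 ± 0.26 over the 15 of Activator (mean ± SD), a difference of -0.50. By replicate number it ran from 1.63 to 2.03 in Activator and from 2.18 to 2.59 in Control, without overlap (two-sided exact permutation p = 0.1). A permutation of line labels over single libraries within each time, 100000 resamples adjusted over 4 pairs, gave p = 0.00048, which treats libraries of different times as separate units. That adjustment counted Med12 to Med12l among the 4 pairs, although no p-value is given for it. The difference was seen at 4 of 5 times, was -0.78 after 3 h and 0.01 after 24 h, and before induction it was -0.48 with overlapping libraries.

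For Ep300 to Crebbp the mean log2 ratio was -0.17 ± 0.07 in Control and -0.38 ± 0.23 in Activator, a difference of -0.20. By replicate number the ratio ran from -0.44 to -0.29 in Activator and from -0.20 to -0.16 in Control (exact permutation p = 0.1, the smallest possible), and over single libraries the permutation gave an adjusted p of 0.00239. By time the difference was -0.22 at the end of induction, -0.34 after 3 h, -0.45 after 6 h, -0.21 after 12 h and 0.20 after 24 h. At 3 and 6 h all Activator libraries lay below all Control libraries, from -0.61 to -0.41 against -0.11 to -0.05 at 6 h. At 24 h all lay above, from -0.08 to 0.06 against -0.22 to -0.17. Relative to Control, the balance of the pair thus lay towards Crebbp at 3 and 6 h and towards Ep300 at 24 h.

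The ratio of Med13 to Med13l differed by -0.08, with overlap between the replicate numbers (exact permutation p = 0.2). That of Med12 to Med12l differed by -1.86, or by -1.14 with 5 instead of 1 added to each count, values that rest on the few counts of Med12l and are given without a test.

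**Figure D4:**
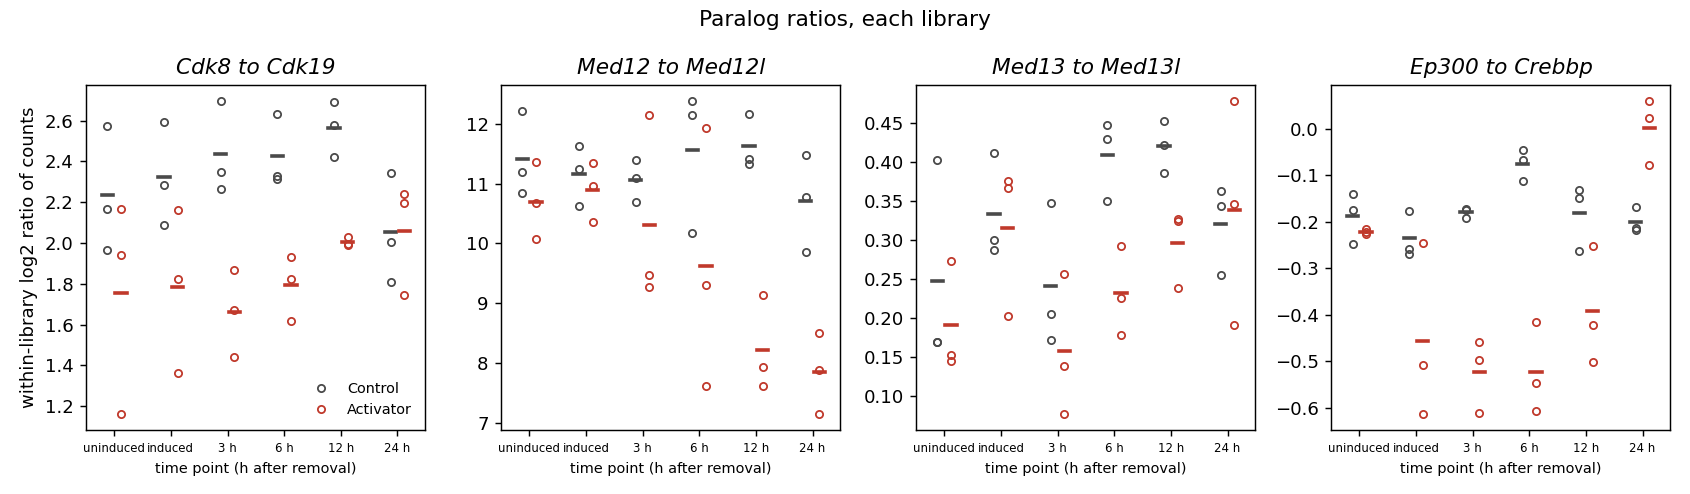
Within-library log2 ratio of counts of 4 paralog pairs (vertical axis) by time point, each library as an open point and the group mean as a bar, grey for MSR-dCas9-Control and red for MSR-dCas9-Activator. The Ep300 to Crebbp ratio of Activator is below Control at 3 and 6 h and above it at 24 h.

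The difference between the lines was also compared between times. Between 12 and 24 h the difference between the lines shrank for Med22 by 1.37, Cdk8 by 0.78, Med8 by 0.64, Med20 by 0.53 and Med1 by 0.29, and grew for Med7 by 0.51 (log2, interaction contrast, adjusted p from 1.14e-05 to 0.0337). These 6 members moved upward and 0 downward, beside 8.7% and 6.38% of all genes. DESeq2 was not run for this contrast, in which 11 members had an unadjusted p under 0.05. For Med22 the rise within Activator from 12 to 24 h was 0.93, and its Control libraries were lower at 24 h than at 12 h. Against the end of induction, the difference at 24 h was higher for 6 members and lower for 6, beside 10.3% and 14.1% of all genes. Med26 (1.23 ± 0.18 (SE)), Med7, Med22, Med20, Med31 and Med27 were the former. Med24 (-0.91 ± 0.13 (SE)), Med14 (-0.71 ± 0.13 (SE)), Med12 (-0.67 ± 0.11 (SE)), Med6, Ccnc and Med18 were the latter. Med22, Med20 and Cdk8 fell on induction and were closer to Control at 24 h than at 12 h. They could be set beside Med14, Med24 and Med12, whose difference was larger 24 h after removal than at the end of induction. These groups rest on different contrasts. Against the end of induction Cdk8 did not pass the threshold (0.23, adjusted p = 0.294). From 12 to 24 h Med14 (-0.34), Med24 (0.21) and Med12 (-0.16) did not pass it. Whether genes differed from each other in timing was not tested.

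**Figure D5:**
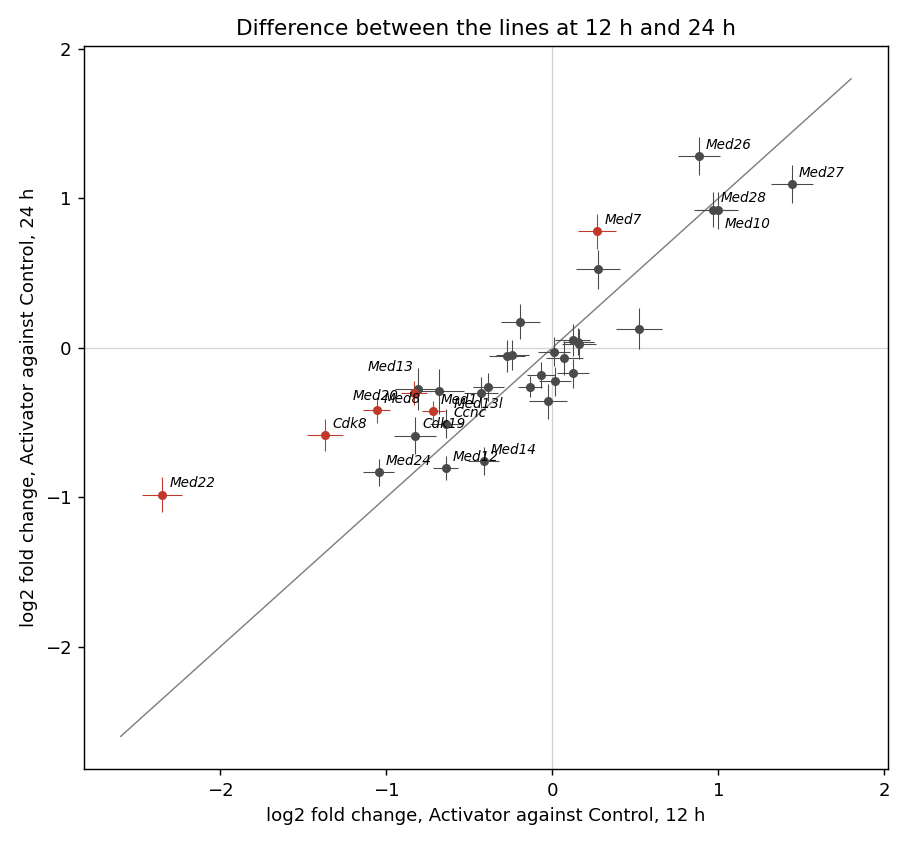
Log2 fold change of MSR-dCas9-Activator against MSR-dCas9-Control at 12 h (horizontal) and 24 h (vertical) for 34 members (Med12l is left out for its low counts), with standard errors as bars, the diagonal of equal values as a line and red for the 6 members whose difference changed at an adjusted p under 0.05. Med22, Cdk8, Med8 and Med20 lie above the diagonal, closer to 0 at 24 h, and Med26 and Med7 lie above it, farther from 0.

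Within the Activator line, induction raised 11 members and lowered 8, beside 32.9% and 28% of all genes. These counts were 1 and 23 on the mitochondrial scale, 18 and 8 without replicate number 2 and 3 and 6 without replicate number 3. All-gene shares are given for the main fit only. Med22 changed by -1.70 (log2) against its own uninduced level, Med20 by -0.94, Cdk19 by -0.55 and Cdk8 by -0.53, and Med27 rose by 0.97 ± 0.12 (SE) and Med28 by 0.57 ± 0.11 (SE). These values rest on the same induced Activator libraries as the comparison of the lines. Less the difference before induction, 6 members were higher and 6 lower at the end of induction, beside 14.5% and 17.7% of all genes. From 12 to 24 h in Activator 9 members rose and 10 fell, beside 17.5% and 19.5% of all genes, counts that changed to 17 and 2 when library size was used without TMM, and to 5 and 3 without Activator replicate 1 of 12 h and 5 and 5 without Activator replicate 3 of 24 h.

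Across the 34 members with ample counts, the log2 fold change at 12 h was lower in genes with longer exons (Spearman's rho -0.45) and with a higher Control level per kilobase (rho -0.46). With genomic length rho was -0.20. The points share libraries and the pair of measures shares the exon length, so these values are given as a description.

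Lists of other transcription machinery are set beside the all-gene shares of 31.7% higher and 25.5% lower at the end of induction and 41.1% and 34.1% at 12 h. Among 12 RNA polymerase II subunits 4 were higher and 1 lower in Activator at the end of induction and 3 and 5 at 12 h, with a median log2 fold change of 0.10 and -0.21. TFIID, with 14 subunits on the list, had 6 higher and 3 lower at the end of induction and 4 and 6 at 12 h, with medians of 0.10 and -0.16. In the list of 17 other general transcription factors 8 were higher and 5 lower at 12 h (median 0.13), and of 19 elongation factors 11 were higher and 4 lower (median 0.36). Of 12 other histone acetyltransferases 3 were higher and 7 lower at 12 h (median -0.42). Medians of the members and of all genes at 12 h were -0.13 and 0.12. All genes of these lists passed the filter on low counts.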

How the data were processed

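The deposited table holds raw counts per gene and per repeat family for 36 libraries. The authors used cutadapt to trim paired reads of ribosome-depleted total RNA (stranded kit), STAR with the settings that TEtranscripts recommends for alignment to GRCm38 and TEtranscripts for counting; the strand setting and mode of the counting and the annotation release were not given in the sources used here. Gene rows were matched to GENCODE M21. Gene counts, without repeats and without 1 unnamed row (at most 0.0045% of counts), were scaled by TMM, filtered with filterByExpr and tested with edgeR 4.0.16 (R 4.3.3; robust quasi-likelihood, 12 groups and replicate number as a block, as in the study's design), with Benjamini-Hochberg adjustment over the 28536 genes tested. By rule, values in every library were given for Ep300, Crebbp, Cdk8, Cdk19, Ccnc, Med1, Med12, Med13, Med14 and Med15 and for the 3 members with the largest called fall and the 3 with the largest called rise at any time (Med22, Cdk8, Med20; Med12l, Med27, Med26); values of other members were added after they were seen. Control libraries are given as lowest, median and highest, Activator libraries one by one in replicate order. The members and lists were chosen with earlier results of these data known. Alternatives included 5 scalings (DESeq2 1.42.0 as a tool, its size factors in edgeR, library size without TMM, gene plus repeat counts, mitochondrially encoded mRNAs) and leaving out each replicate. Tests were checked on simulated data. Libraries of the Repressor line were not analysed here.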

Additional observations from a re-analysis of the deposited data

Results flagged for a closer look

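For 12 members the difference between the lines at the end of induction differed from that before it (interaction contrast of the edgeR fit, Benjamini-Hochberg adjusted over all genes), 6 higher and 6 lower, beside 14.5% and 17.7% of all genes. The head and middle members that fell were Med22 (-1.32, adjusted p = 1.6e-06), Med20 (-0.85, 2.86e-06), Med8 (-0.51, 0.00134) and Med1 (-0.33, 0.0091), and the kinase genes Cdk8 (-0.66, 0.00133) and Cdk19 (-0.60, 0.00979) fell too. Med27 (0.89, 0.000388), Med28 (0.64, 0.00355), Med10 (0.57, 0.0134), Med30 (0.56, 0.0298), Med18 (0.45, 0.0124) and Med17 (0.43, 0.0113) rose. These are log2 values, each with its adjusted p.

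For 6 members the difference between the lines changed from 12 to 24 h in the same fit, beside 8.7% of all genes upward and 6.38% downward. All 6 moved upward, namely Med22 (1.37, adjusted p = 1.14e-05), Cdk8 (0.78, 0.000846), Med8 (0.64, 0.00052), Med20 (0.53, 0.00172), Med7 (0.51, 0.0331) and Med1 (0.29, 0.0337). Med22, Cdk8, Med8, Med20 and Med1 came closer to Control, whereas Med7 moved away from it.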

How the results depend on the processing

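The counts of members called higher and lower moved with the scaling, the fold limit and single libraries, and the cause was not tested. Shares of all genes called in these other fits are not given here, so the counts lack a background. With DESeq2 the counts were 2 lower before induction, 14 higher and 7 lower after 3 h, 14 higher after 6 h, 15 higher after 12 h and 9 lower after 24 h. DESeq2 size factors gave 14 and 7 after 3 h, 14 and 9 after 6 h, 14 higher after 12 h and 9 lower after 24 h. On the mitochondrial scale they were 0 and 19 at the end of induction, 1 and 28 after 3 h, 2 and 29 after 6 h, 3 and 28 after 12 h, 1 and 23 for induction of Activator and 0 lower from 12 to 24 h, and the value of Med26 after 6 h turned to -0.25. Keeping genes with a mean count over 100 gave 14 and 7 after 3 h, 14 and 9 after 6 h, 15 higher after 12 h and 11 and 9 after 24 h. Beyond 2-fold, 0 and 1 remained at the end of induction, 1 and 4 after 3 h, 1 and 3 after 6 h, 1 and 4 after 12 h, 2 and 0 after 24 h, 0 and 1 for induction of Activator and 0 and 0 from 12 to 24 h. Library size without TMM and gene plus repeat counts both gave 6 higher for induction of Activator and 17 and 2 from 12 to 24 h, and no filter gave 5 lower there. Less the difference before induction, 8 were lower at 24 h. Fitted on the groups compared only, 7 were lower after 3 h, 8 after 6 h and 5 after 24 h, 2 rose and 1 fell on Control induction and 1 fell from 12 to 24 h.

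Replicate numbers are shared by all groups, but same-numbered samples of the 2 lines had correlations of their deviations between -0.01 and 0.22, of which 17 of 18 were above 0 and 10 above 0.1. Not every one passed 0.1, and the labels do not say what the number marks. The main edgeR fit still used the replicate number as a block, as in the study's design, so its p-values depend on that choice. Whether same-numbered samples came from a shared experiment was not tested. Without the replicate block, 7 members were lower at 3 h and 4 from 12 to 24 h in Activator, where the fit with the block gave 11 and 10.

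On leaving out 1 replicate number or 1 library, the higher and lower counts ran from 0 to 0 and 0 to 1 before induction, 4 to 8 and 7 to 8 at the end of induction, 3 to 20 and 7 to 12 after 3 h, 4 to 16 and 10 to 13 after 6 h, 5 to 10 and 13 to 16 after 12 h and 5 to 11 and 9 to 15 after 24 h. For induction they ran from 3 to 18 and 6 to 8 in Activator and stayed at 0 and 0 in Control, and from 12 to 24 h in Activator they ran from 3 to 12 and 1 to 11. Single libraries that moved a count by over 1.5 times were Activator replicate 1 after 3 h (8 and 7 without it) and after 24 h (9 lower), and for 24 h against 12 h Activator replicates 1 (5 and 3) and 3 (6 lower) of 12 h and 2 (5 lower) and 3 (5 and 5) of 24 h. Without Activator replicate 1 before induction, 1 member was lower there. The value of Med12 at 3 h ran from -0.215, without Control replicate 2 of that time, to 0.012 without replicate 2, where it turned. Paralog ratios ran from -0.61 to -0.41 for Cdk8 to Cdk19, -2.40 to -1.58 for Med12 to Med12l, -0.138 to -0.0366 for Med13 to Med13l and -0.24 to -0.18 for Ep300 to Crebbp. Taking each replicate number as 1 unit was an alternative chosen after seeing the data. The differences were then -0.50 for Cdk8 to Cdk19, -0.077 for Med13 to Med13l and -0.20 for Ep300 to Crebbp. Their exact permutation p-values before adjustment were 0.1, 0.2 and 0.1, in a design that cannot pass 0.05. The value of -1.86 for Med12 to Med12l is given without a test.

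With 3 libraries a group, small differences are left undecided, and Med12l has too few counts for a fold change. Overlapping antisense genes limit Med10 and, in part, Med31, Med20 and Med7.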
